A study of Homo sapiens and Mus musculus with 61 samples.

Results

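In K562 cells, 2 guide RNAs that target the HS2 enhancer of the beta-globin locus were each tested with biotin-tagged, catalytically inactive Cas9 (dCas9), and with either guide HS2 had the highest ratio over the non-targeting guide sgGal4 of all regions listed for that guide. Of the 61 samples of the series, 10 belong to this comparison by the guide named in their labels: 5 libraries of sgHS2, 1 library of sgHS2-sg2 and 4 libraries of sgGal4. All 10 are K562, a human chronic myeloid leukaemia line that makes embryonic and fetal globins, with the tagged dCas9 and 1 kind of guide, and DNA bound to it was pulled down on streptavidin beads and sequenced (CAPTURE-ChIP-seq). Replicates are numbered in the labels, with no word on whether they were separate cultures. The p-values here thus set a difference against the spread between libraries, and this spread may be technical. The sgHS2-sg2 guide has a single library and no replicate check, so its p-values rest on the spread among sgGal4 libraries. Libraries of sgHS2 labelled Streptavidin, Cas9 and Flag were not analysed here.

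HS2 belongs to the locus control region, a group of enhancers marked by DNase I hypersensitivity that lies upstream of the beta-like globin genes and raises their transcription in erythroid cells. Its core carries a pair of binding sites for NF-E2 and related AP-1 factors beside GATA1 sites. A guide RNA leads Cas9 to DNA that pairs with the guide and lies next to a short motif, the PAM, whose letters for the commonly used Cas9 are NGG. Pairing starts at the guide bases nearest the PAM, called the seed, and binding of inactive Cas9 tolerates mismatches far from the PAM better than mismatches in the seed.

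The authors tagged 1 on-target region for each guide, and both are given here because the results turn on them. All coordinates are hg19, and the sequences were read from GRCh37 on the plus strand. The sgHS2 region lies at chr11:5301954-5302253 and the sgHS2-sg2 region at chr11:5301405-5301704. Both lie in an intron of annotated long HBE1 and HBG2 transcripts, 10928 bp and 10379 bp from the nearest annotated gene start, that of HBE1, the embryonic globin gene. The starts are 549 bp apart and the regions are separated by 249 bp. In the first sequence, capitals mark TGACTCA, the core of the NF-E2 and AP-1 motif. In the second, capitals mark 20 bases and their PAM, which are read on the minus strand and are described with the other regions of this guide.
HS2 region of sgHS2: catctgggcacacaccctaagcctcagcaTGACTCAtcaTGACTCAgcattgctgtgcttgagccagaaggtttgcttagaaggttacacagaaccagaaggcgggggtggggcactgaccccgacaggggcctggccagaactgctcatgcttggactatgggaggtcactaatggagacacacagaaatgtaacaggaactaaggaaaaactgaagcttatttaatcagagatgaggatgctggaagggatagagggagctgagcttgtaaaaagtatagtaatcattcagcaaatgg
HS2 region of sgHS2-sg2: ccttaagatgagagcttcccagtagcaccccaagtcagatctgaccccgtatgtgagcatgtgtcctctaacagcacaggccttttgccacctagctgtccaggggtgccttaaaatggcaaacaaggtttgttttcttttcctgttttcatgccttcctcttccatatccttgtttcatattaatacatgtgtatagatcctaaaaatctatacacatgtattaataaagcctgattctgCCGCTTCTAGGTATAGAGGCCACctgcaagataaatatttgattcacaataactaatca

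Both strands were searched for TGACTCA, for GATAA, the core of GATA factor sites, and for CCACCC, a box bound by KLF factors. The sgHS2 region held TGACTCA at 2 places that do not overlap, CCACCC once and GATAA not at all. The motif TGACTCA occurred in 5.19% of the 5217 regions listed for sgHS2 and CCACCC in 23.7%. The sgHS2-sg2 region held GATAA once, a motif present in 36.6% of the 8573 regions listed for that guide, and neither of the other motifs.

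The deposited values are log2 levels in 300 bp regions, listed and normalized in a separate table for each guide. How the regions were chosen is not given in the sources used here, so a region may be listed because the guide's own libraries are high there. Each library's values fall on the steps of a whole number of reads plus 1, and these reads are printed beside the levels. Reads in listed regions came to 36431, 7127, 11326, 24611 and 44006 in sgHS2 replicates 1 to 5, and to 107104 in the sgHS2-sg2 library. The sgGal4 libraries had 45572, 80818, 8007 and 7659 reads in the regions of the sgHS2 table and 51735, 91790, 10334 and 10348 in those of the sgHS2-sg2 table. Replicates 3 and 4 of sgGal4 and replicate 2 of sgHS2 were thus shallow. Intervals below cover counting error only.

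With sgHS2, the HS2 region held 1150, 147, 643, 109 and 186 reads in replicates 1 to 5, against 0, 5, 0 and 0 reads in sgGal4 replicates 1 to 4. All 5 sgHS2 libraries lay above all 4 sgGal4 libraries. As a share of the reads in listed regions, HS2 took 3.16% in sgHS2 replicate 1 (95% exact binomial interval 2.98% to 3.34%), 2.06% in replicate 2 (1.75% to 2.42%), 5.68% in replicate 3 (5.26% to 6.12%), 0.443% in replicate 4 (0.364% to 0.534%) and 0.423% in replicate 5 (0.364% to 0.488%). In sgGal4 replicate 2 the share was 0.00619%, and for the counts of 0 in sgGal4 replicates 1, 3 and 4 the upper ends of the same intervals were 0.00809%, 0.0461% and 0.0482% (0.00658%, 0.0375% and 0.0392% when 3 reads are taken as the limit of a count of 0). The shares of replicates 1, 2 and 3 were above those of replicates 4 and 5, whose intervals overlap each other and none of the first 3.

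On the deposited scale, HS2 had levels of 10.17, 8.58, 11.07, 7.68 and 7.42 in sgHS2 libraries, against −0.37, 1.73, 2.57 and 2.58 in sgGal4 libraries. The 2 highest sgGal4 levels are those of the shallow replicates 3 and 4 with 0 reads, because the normalization sets 0 reads at a different level in each library. Mean levels were 8.99 ± 1.58 for sgHS2 (SD, n = 5) and 1.63 ± 1.39 for sgGal4 (SD, n = 4), a limma log2 difference of 7.36 (SE 0.75, adjusted p = 7.79e-05 over the 5217 regions). An exact two-sided permutation test of this one region over the 9 libraries gave p = 0.0159, the smallest it can give. The ratio used to rank regions, which is the log2 of the guide libraries' mean linear level divided by the sgGal4 mean, was 7.67. Summed over libraries, HS2 took 514 times as large a share of the reads in sgHS2 libraries as in sgGal4 libraries (95% counting interval 220 to 1585).

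**Figure D1:**
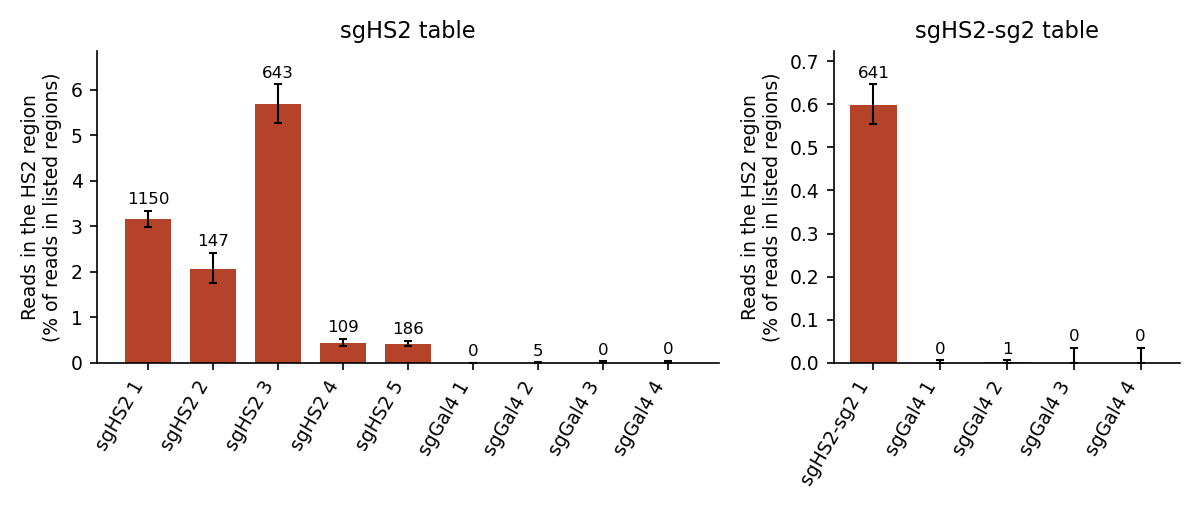
Reads in the HS2 region as a percentage of the reads in listed regions, by library, for sgHS2 and sgGal4 (left) and sgHS2-sg2 and sgGal4 (right), on different vertical scales. Bars are libraries, error bars are 95% exact binomial intervals and the numbers are reads. The 5 sgHS2 libraries ranged from 0.423% to 5.68% and the sgHS2-sg2 library had 0.598%, while no sgGal4 library held more than 5 reads.

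HS2 was the region with the most reads in sgHS2 replicates 1 and 3 and the second in replicates 4 and 5. In the last 2, the region ahead of it was one nearest ZNF337 on chromosome 20, with 142 and 236 reads, which also led sgGal4 replicates 1, 2 and 4 with 255, 463 and 76 reads. In sgHS2 replicate 2, HS2 ranked 4, behind regions nearest PGK1, EEF1A1 and SKOR1.

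Of the 5217 regions listed for sgHS2, 1 was called higher than sgGal4 at an adjusted limma p below 0.05, which is 0.0192% of those tested, and that region was HS2. None was called lower. At an unadjusted limma p below 0.05, 320 regions were higher and 1194 lower. Every sgHS2 library lay above every sgGal4 library in 77 regions (1.48%) and below in 495 (9.49%). A ratio of at least 1, meaning a doubling, was found in 282 regions (5.41%) and a ratio of −1 or less in 1164 (22.3%), against a median ratio of −0.40 over all regions. The library left out decided the count: without sgHS2 replicate 2, 24 regions were called higher and 553 lower, and HS2 kept its call in each of these fits.

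The next ratio after HS2 was 4.03, for a region in an intron of PGK1, which encodes a glycolytic kinase, 218 bp from its start (chrX:77359378-77359677). It held 1, 423, 3, 0 and 6 reads in sgHS2 replicates 1 to 5, against 0, 0, 7 and 1 in sgGal4 libraries. Only sgHS2 replicate 2 was high, the groups overlapped, and the difference was 1.78 (SE 1.51, limma adjusted p = 0.419). The same library had 308 reads in a region nearest EEF1A1, a translation elongation factor gene, where the other sgHS2 libraries had 38 to 87 reads and sgGal4 libraries had 19, 39, 265 and 62. It had 304 reads in a region nearest SKOR1, a transcriptional corepressor gene, where the other sgHS2 libraries had 3 to 7 reads and sgGal4 libraries had 6, 5, 136 and 28. As a share of reads in listed regions, EEF1A1 took 4.32% in sgHS2 replicate 2 and 0.154% to 0.336% in the other sgHS2 libraries, against 0.0417%, 0.0483%, 3.31% and 0.81% in sgGal4 replicates 1 to 4. SKOR1 took 4.27% in sgHS2 replicate 2 and 0.0082% to 0.053% in the other sgHS2 libraries, against 0.0132%, 0.0062%, 1.70% and 0.366% in sgGal4 replicates 1 to 4. High shares at both were thus common to sgHS2 replicate 2 and sgGal4 replicates 3 and 4, the 3 shallowest libraries, and the part of this in the comparison was not tested.

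Without PGK1, no region outside HS2 reached a ratio of 3. A region over the first exon of PAIP2, which encodes a repressor of the poly(A)-binding protein, had a ratio of 2.62 (chr5:138677370-138677669). It held 17, 3, 8, 12 and 20 reads in sgHS2 libraries, against 1, 0, 0 and 0 in sgGal4 libraries, and all sgHS2 levels lay above all sgGal4 levels. The difference was 3.19 (SE 0.63, limma adjusted p = 0.078). A region in an intron of UHRF1, which encodes a factor for maintenance of DNA methylation, held 18, 4, 2, 13 and 17 reads in sgHS2 libraries, against 0, 1, 0 and 0 in sgGal4 libraries, a ratio of 2.42 (chr19:4912057-4912356). An intergenic region nearest GPC6, a glypican gene, held 22, 3, 2, 17 and 41 reads in sgHS2 libraries, against 4, 2, 0 and 0 in sgGal4 libraries, also a ratio of 2.42 (chr13:93852923-93853222). At UHRF1 and GPC6 all sgHS2 levels lay above all sgGal4 levels, and the limma adjusted p was 0.078 at both. The remaining 6 of the 10 highest ratios, nearest CTU2, SLC6A19, ZP4, RALY, ZNF324 and QTRT1, ranged from 1.84 to 2.11. The ZP4 region was uneven, with 9, 35, 4, 11 and 141 reads in sgHS2 libraries and 0, 4, 6 and 5 in sgGal4 libraries.

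With sgHS2-sg2, the HS2 region held 641 of 107104 reads, or 0.598% (95% exact binomial interval 0.553% to 0.647%), and was the region with the most reads in the library. The sgGal4 libraries held 0, 1, 0 and 0 reads there. The sgHS2-sg2 level was 9.33, against 0.52, 0.73, 2.85 and 2.87 in sgGal4 libraries, whose mean was 1.74 ± 1.29 (SD, n = 4), and the ratio was 7.19. Against the summed sgGal4 reads the share was 983 times as large, with a 95% counting interval of 176 to 38876, since it rests on 1 read. The limma log2 difference was 7.58 (SE 1.15, adjusted p = 0.0288 over 8573 regions), with the lone guide library assumed to vary like the sgGal4 libraries. Leaving out any one sgGal4 library kept a difference of 7.18 to 7.96 but took the limma adjusted p to between 0.0589 and 0.0794. An exact permutation test over these 5 libraries cannot give a two-sided p below 0.4.

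Between the 2 guides, sgHS2-sg2 had the larger number of other regions both above and below sgGal4. The sgHS2-sg2 table had 97 of 8573 regions called higher (1.13%) and 1154 called lower (13.5%) by limma at an adjusted p below 0.05, and both counts fell to 0 when any one sgGal4 library was left out. At an unadjusted limma p below 0.05, 584 regions were higher and 2158 lower. A ratio of at least 1 was found in 2330 regions (27.2%), and a ratio of at least 4 in 39 (0.455%), against 282 (5.41%) and 2 (0.0383%) in the sgHS2 table. A ratio of −1 or less was found in 3016 regions (35.2%) for sgHS2-sg2 and in 1164 (22.3%) for sgHS2. The sgHS2-sg2 ratios rest on 1 guide library and the sgHS2 ratios on a mean of 5. The tables share the sgGal4 libraries and were listed and normalized apart, and the difference between them was not tested. In sgHS2-sg2, 38 regions outside HS2 reached a ratio of 4, where in sgHS2 only the PGK1 region did.

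**Figure D2:**
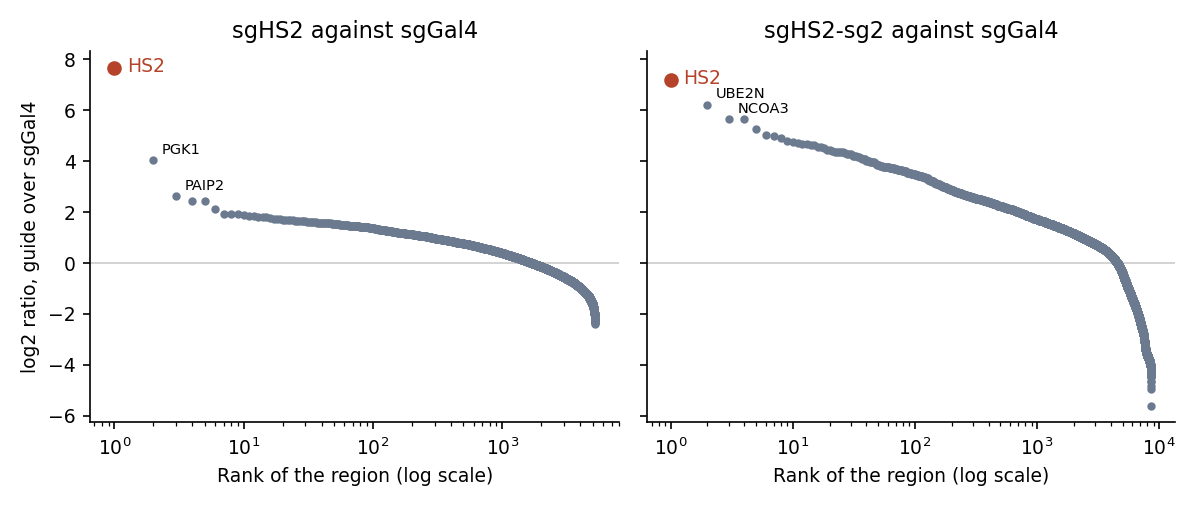
Log2 ratio of guide over sgGal4 for every listed region, ranked on a log scale, for sgHS2 (left, 5217 regions) and sgHS2-sg2 (right, 8573 regions). HS2 is first in both, at 7.67 and 7.19. The next region stands at 4.03 for sgHS2 and at 6.21 for sgHS2-sg2, and the sgHS2-sg2 ratios decline gradually from there.

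The highest region outside HS2 with sgHS2-sg2 was an intergenic one, 12251 bp from the start of UBE2N, a ubiquitin-conjugating enzyme gene (chr12:93847825-93848124). It held 310 reads in the sgHS2-sg2 library and 0 in all 4 sgGal4 libraries, at least 158-fold higher as a share of reads if sgGal4 is given 3 reads over the group. An intergenic region nearest NCOA3, a nuclear receptor coactivator gene, held 361 reads, against 1 in each sgGal4 library (chr20:46108385-46108684). An intergenic region nearest ARID1A, which encodes a subunit of SWI/SNF chromatin remodellers, held 317 reads, against 1, 3, 0 and 1 (chr1:26993427-26993726). These 3 had ratios of 6.21, 5.64 and 5.63, and in each the sgHS2-sg2 library lay above all sgGal4 libraries. With a single guide library this was common. It lay above all sgGal4 libraries in 2852 of the 8573 regions (33.3%) and below all of them in 3342 (39%). An intergenic region nearest CMTM7 held 346 reads in the sgHS2-sg2 library, against 7, 6, 0 and 1 in sgGal4 libraries (chr3:32421413-32421712), a ratio of 5.27. The remaining regions of the 10 highest, nearest PCLAF, VPS13D, SCN11A, TBX18, IL17B and LONRF3, had 138 to 226 reads in the sgHS2-sg2 library and ratios of 4.70 to 5.01.

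The authors tagged 2 regions of the sgHS2-sg2 table as off-target and none of the sgHS2 table. One overlapped an exon of PCLAF, which encodes a PCNA-binding factor, 244 bp from its start (chr15:64673244-64673543), with 226 reads in the sgHS2-sg2 library, against 5, 6, 0 and 0 in sgGal4 libraries. Its ratio was 5.01 and its difference 5.03 (SE 0.57, limma adjusted p = 0.0288). The other was intergenic, nearest GRB14, an adaptor protein gene (chr2:165520453-165520752), with 37 reads in the sgHS2-sg2 library and 0 in all 4 sgGal4 libraries, at least 18.9-fold higher against 3 reads over the group. Its ratio was 3.18 and its limma adjusted p was 0.12. Of the 38 regions outside HS2 with a ratio of at least 4, 65.8% were intergenic, 31.6% lay in introns and 2.63% touched an exon, against 46.6%, 35.3% and 18.1% of all 8571 regions listed outside the globin cluster. Within 1 kb of a gene start lay 5.26% of them, against 18.5% of all.

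The bases next to a PAM were then compared between the target region and the 50 highest regions outside the cluster. The guide sequences are not in the sources used here, so every stretch of 8 bases before an NGG on either strand of each target region was tried. Of 33 such stretches in the sgHS2-sg2 target region, CCTAGAAG on the minus strand occurred before an NGG in 43 of the 50 highest regions (86%), against 726 of the 8571 listed (8.47%). The same search with 38 stretches of the sgHS2 target region found none in more than 1 of its 50 highest regions. The stretch was picked by these values, so its frequency among the highest regions is a description. The site at HS2 and those at the highest regions and at both tagged off-target regions are given below in the direction of the PAM, because they show what the regions share. Capitals mark the unbroken run of bases identical to HS2 up to the PAM and the GG of the PAM.
HS2, chr11:5301646-5301668: GTGGCCTCTATACCTAGAAGcGG
UBE2N: aggaaagtTATACCTAGAAGaGG
NCOA3: tggggaaccacACCTAGAAGaGG
ARID1A: catctcacttTACCTAGAAGgGG
CMTM7: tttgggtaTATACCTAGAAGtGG
PCLAF: ctggccccttTACCTAGAAGaGG
VPS13D: agatttctatccaCTAGAAGaGG
SCN11A: tttatacaTATACCTAGAAGtGG
TBX18: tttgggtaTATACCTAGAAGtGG
IL17B: ctggagcttatagCTAGAAGgGG
LONRF3: cttgggtaTATACCTAGAAGgGG
GRB14: ggagacttTATACCTAGAAGaGG

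Counted from 1 at the end far from the PAM, the PCLAF site differed from HS2 at 3 positions (G1C, T7C and A10T) and the GRB14 site at 4 (T2G, G3A, C5A and C8T). The UBE2N site, with the highest ratio, differed at 7 positions, all of them among the 8 farthest from the PAM (G1A, T2G, G4A, C5A, C6A, T7G and C8T). The VPS13D and IL17B sites matched over 7 bases only, so the 8-base stretch was not found before an NGG there. The VPS13D site differed from HS2 at 13 of 20 positions and still held 173 reads in the sgHS2-sg2 library, against 1, 5, 0 and 0 in sgGal4 libraries. Among the 10 highest regions 8 held the 8-base stretch, and all of the 50 highest held at least 5 matching bases before an NGG. Of all 8571 regions listed outside the cluster, 8.47% held the stretch and 41.0% at least 5 matching bases. The site was picked from the 50 highest regions, so these counts are a description.

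Among the regions listed for sgHS2-sg2, the ratio was higher in those with a longer run of matching bases. This is a description: the regions with runs of 12 to 19 bases had a median of 30 reads in the sgHS2-sg2 library and of 0, 1, 0 and 1 in sgGal4 libraries, so they may be listed only because the guide library is high there, and the site was picked from the highest regions. The 5059 regions whose longest run before an NGG was at most 4 bases had a median ratio of −1.31. The median was 0.95 for 2081 regions with a run of 5 bases, 1.39 for 153 with 8, 1.98 for 128 with 10 and 2.27 for 216 with 12 to 19. Without the 50 highest regions, a choice made after the values were seen, the medians were −1.31 for the first class and 2.21 for the last, of 197 regions. With the regions that had no sgGal4 read set at their bound of 3 reads over the group, the median of the last class was 2.38 and that of the first stayed at −1.31. In the sgHS2 table the same classes showed no such order: the median was −0.41 for 4836 regions with a run of at most 4 bases, −0.36 for 340 with 5, −0.55 for 25 with 6, −0.30 for 7 with 7 and 0.15 for 6 with 8, and the 1 region with a longer run had a ratio of −1.38.

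**Figure D3:**
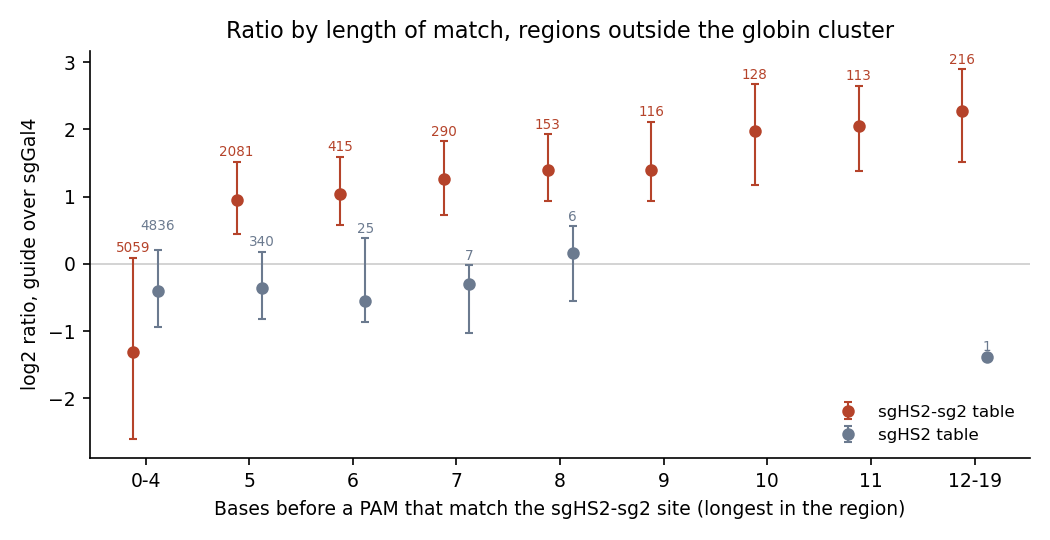
Median log2 ratio (points) and interquartile range (bars) of guide over sgGal4, by the longest run of bases before a PAM identical to the HS2 site of sgHS2-sg2. Small numbers are regions. Medians climb to 2.27 in the sgHS2-sg2 table for runs of 12 to 19 bases, whereas in the sgHS2 table, which has few regions with long runs, they show no such order.

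Regions with a run of 8 or more bases took 23.6% of the sgHS2-sg2 reads in listed regions (95% exact binomial interval 23.4% to 23.9%), although HS2 itself took 0.598%. In sgGal4 replicates 1 to 4 the same 726 regions took 2.13%, 2.12%, 5.13% and 5.89% of reads. The stretch was picked from the highest sgHS2-sg2 regions, so these shares are a description. Among 579 regions with such a run and a ratio of at least 1, the matching site lay near the middle of the region. Its median distance from the centre was 0.5 bp (interquartile range −16 to 16.5 bp), and 89.1% lay within 50 bp. Among 147 regions with such a run and a ratio below 1, 67.3% lay within 50 bp. For runs of 5 bases the share was 69.9% of 2081 regions listed for sgHS2-sg2 and 36.2% of 340 listed for sgHS2. At HS2 itself the site lay 94.5 bp from the centre of the region.

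The genome was then read the other way. On chromosomes 1 to 22 and X, 6339 sites outside the globin cluster carried CCTAGAAG before an NGG, and 726 of them (11.5%) lay in a region listed for sgHS2-sg2. The share was 3.52% of 4341 sites with a run of exactly 8 bases, 10.7% of 1081 with 9, 41.0% of 312 with 10, 43.8% of 258 with 11 and 62.2% of 347 with 12 to 19. For sgHS2, 7 of the 6339 sites were listed. No other of the 16 tables of the series listed more than 24, the number for sgHS5, a guide to another hypersensitive site of the locus. The site was picked from the highest sgHS2-sg2 regions, and a region may be listed because that library is high there. The gap between the guides is thus a description and no separate check. The step between runs of 9 and 10 bases was the steepest.

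**Figure D4:**
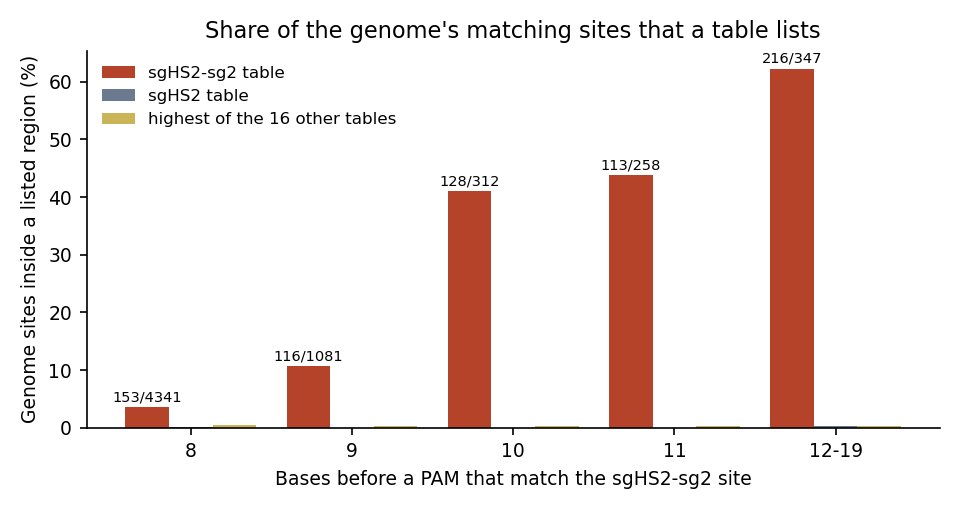
Percentage of the genome's sites with a run of 8 to 19 bases identical to the HS2 site before a PAM that lie in a listed region, for the sgHS2-sg2 table, the sgHS2 table and the highest of the 16 other tables. Numbers above the sgHS2-sg2 bars are listed sites over all sites. The bars climb from 3.52% to 62.2% for sgHS2-sg2 and stay below 0.5% in the other tables. The site was picked from the highest sgHS2-sg2 regions.

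Beyond the 8 matched bases, listed and unlisted sites differed most next to the run. At the ninth base from the PAM 78.9% of the 726 listed sites had the base of HS2, against 25.4% of the 5613 unlisted sites. At the base 12 from the PAM the figures were 45.0% and 26.3%. Farther out the gap went both ways. Listed sites were higher at the bases 14, 17 and 19 from the PAM, with 53.6%, 46.0% and 46.7%, against 35.8%, 30.2% and 36.9%. They were lower at the bases 13, 15, 16, 18 and 20. At the base 16 from the PAM the figures were 13.2% and 17.3%, and at the farthest base, 20 from it, 15.8% and 21.6%. Differences from HS2 were counted only for the 6339 sites that share the 8 bases next to the PAM. Sites with a difference within those 8 bases were not searched for. Of the sites searched, all 6 with 3 differences were listed, as were 35 of 60 with 4 (58.3%) and 126 of 278 with 5 (45.3%).

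**Figure D5:**
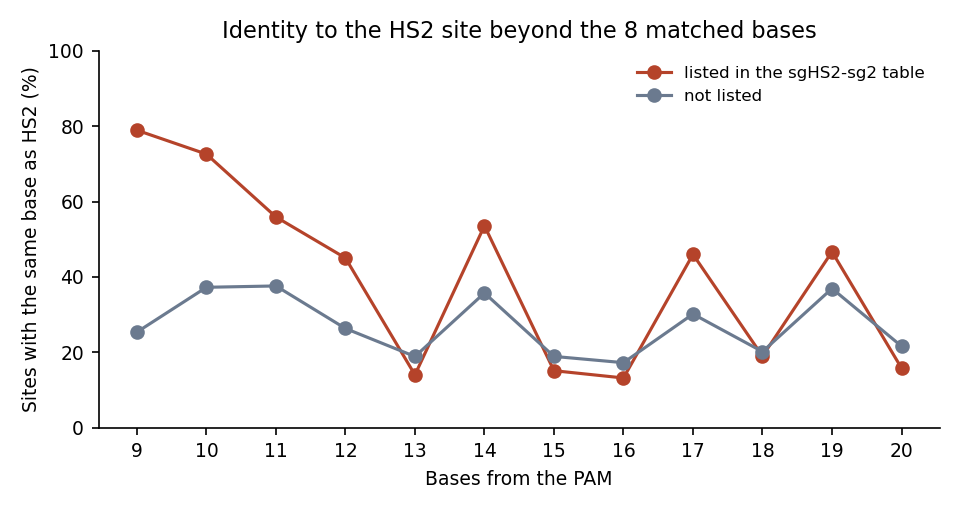
Percentage of sites with the same base as HS2 at each base from 9 to 20 counted away from the PAM, for the 726 listed and 5613 unlisted sites that share the 8 bases next to it. Listed sites are at 78.9% at the ninth base, against 25.4% of unlisted sites. The lines lie close together or cross from the base 13 from the PAM on, apart from those at 14, 17 and 19, where listed sites are higher.

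Many of the long matches were copies or near copies of one another. The 20 bases at CMTM7 and TBX18, which differ from HS2 as G1T, G3T, C5G, C6G and C8A, occurred before an NGG at 33 places in the genome, of which 22 were in listed regions with a median ratio of 1.78. The 4 next most frequent stretches differ from that one at 1 or 2 positions (21, 19, 12 and 6 genome copies, one of them the stretch at LONRF3). With them, 91 of the 347 genome sites with runs of 12 to 19 bases are accounted for, and 52 of the 216 listed ones. Of the 333 sites with a run of exactly 12 bases, 267 carry C8A, as do 160 of the 205 listed. Most sites with a run of exactly 12 bases thus share the base next to the run, and the copied sites are not independent of each other. The most frequent stretch is shown because it recurs, with the bases identical to HS2 next to the PAM in capitals.
Recurrent 20 bases: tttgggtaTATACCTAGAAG

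Within the globin cluster, each table listed 1 region besides the target, at chr11:5273371-5273670, 2433 bp from the start of HBG1, a fetal globin gene. It held 0, 0, 2, 12 and 4 reads in sgHS2 libraries and 1 read in the sgHS2-sg2 library, against 7, 14, 0 and 2 in sgGal4 libraries. Its ratio was −0.15 for sgHS2 and −2.53 for sgHS2-sg2, and it was called in neither (limma adjusted p = 0.517 and 0.0598). Listed regions within 10000 bp of a start of 35 genes were also examined, in lists for beta-like globins, alpha-like globins, GATA1 and TAL1 partners, NF-E2 and AP-1 factors, and CTCF with cohesin. No such region was called in either table, a count read against the 0.0192% called higher and 0% lower over all regions for sgHS2 and the 1.13% and 13.5% for sgHS2-sg2, so that few or no calls among so few regions say little about the lists. The GATA1 and TAL1 list had 3 regions in each table, near GATA2, KLF1 and ZFPM1, with a median ratio of −0.51 for sgHS2 and −2.42 for sgHS2-sg2, beside −0.40 and 0.16 over all regions. These 3 regions held 2, 1 and 1 reads in the sgHS2-sg2 library. Their runs of matching bases were at most 4 long, a class with a median ratio of −1.31 for sgHS2-sg2. The NF-E2 and AP-1 list had 2 regions for sgHS2 and 4 for sgHS2-sg2, with medians of −0.68 and −0.55. The CTCF and cohesin list had 1 region, near STAG1 in the sgHS2 table at a ratio of −0.05, and no region was listed near the alpha-like globins. The highest was a region near NFE2, which encodes a subunit of NF-E2, inside COPZ1 in the sgHS2-sg2 table, apart from one near a distal HBE1 and HBG2 transcript start with a ratio of 1.36. The NFE2 region held 17 reads in the sgHS2-sg2 library, against 4, 8, 0 and 2 in sgGal4 libraries, a ratio of 0.92 (limma adjusted p = 0.355). A region near BACH1, which encodes a repressor that binds NF-E2 type sites, held 36, 4, 5, 23 and 32 reads in sgHS2 libraries, against 32, 58, 2 and 2 in sgGal4 libraries, a ratio of 0.18. The region over the same exon in the sgHS2-sg2 table held 10 reads in the sgHS2-sg2 library, against the same 32, 58, 2 and 2, a ratio of −1.42 (limma adjusted p = 0.319).

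The same regions were then set side by side for the 2 guides, which share the sgGal4 libraries. Regions overlapping by at least 150 bp numbered 3842, which is 73.6% of the sgHS2 list and 44.8% of the sgHS2-sg2 list. The 39 sgHS2-sg2 regions with a ratio of at least 4, HS2 included, had no such partner in the sgHS2 list. A ratio of at least 1 in both tables was found in 5 regions, nearest QTRT1, CCDC71L, MECR, RPS7 and RPS6KA1, which is 1.77% of the sgHS2 regions at or above 1 and 0.215% of those of sgHS2-sg2. Most of those had no partner: among the matched regions 15 reached 1 for sgHS2 and 25 for sgHS2-sg2, so the 5 are 33.3% and 20.0% of them. A ratio of −1 or less in both tables was found in 1094 matched regions (28.5%). Over all listed regions, 1164 (22.3%) were that low for sgHS2 and 3016 (35.2%) for sgHS2-sg2. Both ratios divide by the same sgGal4 libraries, so this overlap is no separate check between the guides. The QTRT1 region, near a gene for a tRNA-modifying enzyme, had ratios of 1.84 for sgHS2 and 1.38 for sgHS2-sg2. The RPS6KA1 region, near a gene for a ribosomal S6 kinase, held 18, 1, 4, 10 and 12 reads in sgHS2 libraries and 38 in the sgHS2-sg2 library, against 4, 6, 2 and 0 in sgGal4 libraries of the sgHS2 table. None of the 5 was called in either table.

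The sgHS2 target was also listed in 2 of the 15 tables of other guides. In libraries that carried a pool of guides to HS1 to HS5, the region held 176, 359, 9, 16, 3058 and 5342 reads, and its ratio over sgGal4 was 7.53, second of 16890 regions. With sgHS4, a guide to a neighbouring hypersensitive site, a region at chr11:5301848-5302147 held 20 and 12 reads, against 0, 3, 0 and 0 in sgGal4 libraries. Its ratio was 1.88 against a median of 0.25 over the 10734 regions of that table, and its rank was 185.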

How the data were processed

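Per the labels' protocols, reads aligned to exactly one place in hg19 were kept; the submitters' processing notes name Bowtie 1.0.0 and Picard. The authors deposited 1 table per guide with log2 levels per library in 300 bp regions, an M value (log2 ratio) and target tags; no normalization method or peak caller is named in the sources used here. The deposited log2 levels equal an intercept plus a slope times log2(reads + 1), with an intercept and slope for each library; whole numbers came back for 100% of values (within 0.01 or 0.01% of the value), and in 4588 regions listed in several tables the sgGal4 reads so recovered differed in 0. The authors' M value was recomputed within 1.39e-08. Steeper or flatter slopes and different levels at 0 reads affect levels of regions with few reads most.

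Within each table, limma 3.58.1 (R 4.3.3) compared guide with sgGal4 levels, with Benjamini-Hochberg adjustment over all regions and a threshold of 0.05. It was tested on data simulated with normal noise, without the steps of whole reads. A log2 rise of 4 was recovered in 100% of raised regions for sgHS2 and in 64% for sgHS2-sg2. For a rise of 2 the shares were 79% and 1%. In the sgHS2 simulation 24 regions without a rise were called. Nearest genes come from protein-coding starts of GENCODE lifted to GRCh37; sequences were read with pysam 0.24.0. The libraries' columns were taken by the names in the headers. Named regions are the targets, tagged regions, cluster regions, the 10 highest ratios, the 5 highest and lowest called differences, the highest of each list and the regions at 1 or above in both tables; EEF1A1, SKOR1 and ZNF337 were named after their values were seen. Regions, lists and tests were chosen with earlier results of these data known. Alternatives covered scale, pseudocount, centring, filter, prior, single libraries, a stricter threshold and a replicate block.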

Additional observations from a re-analysis of the deposited data

Results flagged for a closer look

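In 63 groups of 4 or 5 library values at named regions, 3 had a library far from the others; chance flags about 1 in 20 such groups. At the RALY region of the sgHS2 table, sgHS2 replicate 1 had a level of 3.32 (9 reads), below the next sgHS2 library at 4.08 (4 reads). At the RPS7 region of the sgHS2 table, sgGal4 replicate 1 had a level of 1.40 (2 reads), below the next sgGal4 library at 2.57 (0 reads). At the COPZ1 region of the sgHS2-sg2 table, sgGal4 replicate 4 had a level of 4.09 (2 reads), above the next sgGal4 library at 2.85 (0 reads). There, sgGal4 replicates 1 and 2 had lower levels with 4 and 8 reads. The reads did not follow the order of the levels at any of the 3. None of these regions was called in its table.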

How the results depend on the processing

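The sgHS2 call at HS2 held under every alternative run: the log2 difference was 6.69 to 7.75 with 1 library left out and 5.79 to 8.39 otherwise. For sgHS2-sg2 the difference was 7.18 to 7.96 without 1 sgGal4 library, where the call was lost each time, and 4.94 with a pseudocount of 5 reads, where the adjusted p was 0.228. The direction was the same in all of these.

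Counts of called regions depended on the processing. In the sgHS2 table, regions called higher numbered 26 (lower 26) with a pseudocount scaled to the library, an alternative added after seeing the data, 64 (lower 67) with libraries centred on their medians, 2 without the 25% of regions with the lowest levels, 4 with a trended robust prior, 339 (lower 29) without sgGal4 replicates 3 and 4, and 1 to 24 (lower 0 to 553) without 1 library, both maxima being those without sgHS2 replicate 2. The added regions in the counts of 2 and 4 were PAIP2 (both), GPC6 and UHRF1. In the sgHS2-sg2 table, regions called higher numbered 31 (lower 1509) with a pseudocount of 1 read, 0 (lower 0) with 5 reads, 209 (lower 58) with the scaled pseudocount, 308 (lower 1266) with centring, 332 (lower 1663) without the lowest 25%, 418 (lower 1772) with the trended prior, 3477 (lower 2649) without sgGal4 replicates 3 and 4, 0 (lower 0) under the stricter threshold of a ratio of 1 and p of 1e-05, and 0 to 0 (lower 0 to 0) without 1 sgGal4 library. Fewer libraries or another spread enter these fits; the cause was not tested. In the sgHS2-sg2 table the median difference of all regions was 0.37, and it was −0.31 with a pseudocount of 1 read and −1.08 with 5. In the same settings regions with a run of 8 or more bases had medians of 2.33, 1.74 and 0.17, above those of all regions each time. This is a description, since the stretch was picked from the highest regions of that library.

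Deviations of same-numbered sgHS2 and sgGal4 libraries were weakly correlated (r = 0.09, −0.04, −0.06 and 0.11 for numbers 1 to 4). Pairs of unlike number ranged from −0.12 to 0.15. Whether equal numbers mark libraries prepared together is not stated in the labels, and such weak correlations cannot decide it. With a replicate block, which drops sgHS2 replicate 5 in effect, the difference at HS2 was 7.75 (limma adjusted p = 1.21e-07) and 2 regions were called higher, HS2 and PAIP2. Depth limits regions with few reads in sgHS2 replicate 2 and sgGal4 replicates 3 and 4, where 27.7% to 41.5% of listed regions held 0 reads.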

Other observations

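The 5 lowest called regions of the sgHS2-sg2 table, nearest GNAZ, SRC, GPC5, KCTD3 and DEFB115, had 0 reads in the sgHS2-sg2 library. At the GNAZ region sgGal4 libraries had 14, 21, 12 and 7 reads, and at the SRC region 28, 44, 2 and 5. As a share of reads, taking 3 reads for the sgHS2-sg2 library, GNAZ was at least 11.7-fold lower and SRC at least 17.2-fold lower than in sgGal4. Of the 1154 regions called lower in that table, 1109 had a run of at most 4 matching bases, a class that makes up 5059 of the 8571 regions outside the cluster.

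Of the 96 regions outside HS2 called higher with sgHS2-sg2, 48 of them had a run of 8 or more matching bases and 92 (95.8%) a run of 5 or more. Among all 8571 regions listed outside the cluster these made up 8.47% and 41.0%. The stretch was picked from the highest regions of this same library, so these shares are a description under every setting. The share of called regions with 8 or more was 19.6% to 66.7% over the alternatives that left any region called, and no region was called when any one sgGal4 library was left out or with a pseudocount of 5 reads. In the sgHS2-sg2 library a region of 5 matching bases held a median of 14 reads, against 2, 5, 1 and 1 in sgGal4 replicates 1 to 4, and a region of 12 to 19 held 30, against 0, 1, 0 and 1.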
